A study of Mus musculus with 16 samples.

Results

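The 10 genes described here encode the classical MHC class I molecule of the mouse and the machinery that supplies it with peptides. They were the rows of the deposited counts table that map to *H2-K1*, *H2-D1*, *B2m*, *Tap1*, *Tap2*, *Tapbp*, *Nlrc5*, *Psmb8*, *Psmb9* and *Psmb10*, and all 10 of the listed symbols were found among the 56748 rows. Murine Sertoli-like TM4 cells, an established line used as a model of the somatic cells of the testis, received 2.5 µg plasmid in each well and were lysed 24 h later for poly(A) RNA-Seq. In 6 samples the plasmid was the empty vector pcDNA3.1-HA (EV), in 5 it was pcDgdf6Y, which carries *gdf6Y* of the killifish *Nothobranchius furzeri* (*gdf6Y*), and in 5 it was pcDgdf6Ydel9, which carries the same gene with an in-frame deletion in the part that encodes the prodomain (del9). Transfection reagent and plasmid DNA were thus common to all 16 samples, and no sample without a plasmid was analysed here. All samples came from 1 cell line, and the labels do not say whether replicates were separate cultures. The p-values thus refer to these samples alone, and the spread between them may be technical.

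Nearly all nucleated cells display MHC class I on their surface, where cytotoxic T cells read the peptides it carries. Proteasomes cut cytosolic proteins into peptides, a transporter pumps these into the endoplasmic reticulum, and tapasin holds the empty heavy chain and β2-microglobulin beside the transporter until a peptide fits. Interferons raise most of these genes together, and in the testis low class I display is one of the features of immune privilege to which Sertoli cells contribute.

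The samples held 21486850 to 26444903 assigned reads, and the table contains no row for the killifish transgene, so the plasmid in each sample could not be checked from it. Of 10 Sertoli cell markers, *Gata4* (656 to 872 reads per sample) and *Kitl* (605 to 815) were well covered, and *Sox9* had 34 to 54 reads and *Amh* 3 to 13. *Fshr* and *Cldn11* had 1 read each over all 16 samples. The summed level of these markers was 68.2 to 71.8 CPM (counts scaled to library size) in EV, 60.8 to 65.7 in *gdf6Y* and 63.7 to 70.4 in del9, and *Gata4* was lower in *gdf6Y* than in EV (log2 fold change -0.20, edgeR adjusted p = 9.98e-05); their part in the results was not tested. The 10 leukocyte markers summed to 1.52 to 2.84 CPM, with 3 of 10 at 0 in every sample and *Ptprc*, the pan-leukocyte antigen CD45, at 0 to 2 reads. Endothelial markers summed to 0.236 to 0.623 CPM over 4 genes and Leydig cell markers to 0.784 to 1.45 CPM over 5 genes, of which 2 were at 0 throughout. In bulk samples, fewer cells that express a gene and less RNA per cell cannot be told apart.

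Of the 10 genes, 7 lie in the MHC region of chromosome 17 with 1 on chromosome 2 and 2 on chromosome 8, and all are annotated as protein-coding in GRCm39. *H2-K1* (ENSMUSG00000061232, chr17:34214987-34219321, minus strand) and *H2-D1* (ENSMUSG00000073411, chr17:35481691-35486475, plus strand) encode the polymorphic heavy chains, and *B2m* (ENSMUSG00000060802, chr2:121977957-121983594, plus strand) their invariant light chain. *Psmb9* (ENSMUSG00000096727, chr17:34400960-34406738, minus strand), *Tap1* (ENSMUSG00000037321, chr17:34405996-34416199, plus strand), *Psmb8* (ENSMUSG00000024338, chr17:34416690-34420428, plus strand) and *Tap2* (ENSMUSG00000024339, chr17:34422501-34435829, plus strand) follow each other in one stretch. *Tapbp* (ENSMUSG00000024308, chr17:34134873-34148267, plus strand) encodes tapasin. *Psmb10* (ENSMUSG00000031897, chr8:106662362-106665077, minus strand) encodes an inducible proteasome subunit, and *Nlrc5* (ENSMUSG00000074151, chr8:95160984-95253900, plus strand) the transactivator of class I genes. The exons of *Tap1* and *Psmb9* overlap on opposite strands over 743 bases, and those of *Tapbp* share 923 bases with *Zbtb22* on the same strand. Reads were counted by strand, and reads that fell in more than one gene on a strand were discarded. Exons here come from another annotation release than the one used for counting. *Tapbp* was counted without the shared stretch only if that release held the overlap as well, which was not checked. Reads that map to more than one place were also discarded, which makes the levels of the related heavy chain genes *H2-K1* and *H2-D1* uncertain. The TM4 line was derived from BALB/c mice, which carry another MHC haplotype than the C57BL/6J reference genome, so reads of its own heavy chains may map poorly or to another heavy chain gene, and how far these counts stand for the K and D genes of the line was not tested.

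Class I promoters carry conserved boxes, and the promoters are shown for the heavy chain pair, for *B2m* and *Tapbp*, which changed in a comparison, and for *Tap1*, whose window is shared with *Psmb9*. Each runs 5′ to 3′ on the strand of the gene, from 250 bases before to 50 bases after the gene start in RefSeq's promoter table, and was placed on GRCm39 by exact match. That start can differ from the gene bounds given above, as for *Tapbp*, *Tap1* and *Psmb9*, because the bounds come from another annotation and span all its transcripts. The windows are chr17:34219272-34219571 for *H2-K1* (minus strand), chr17:35481820-35482119 for *H2-D1* (plus strand), chr2:121977918-121978217 for *B2m* (plus strand), chr17:34138202-34138501 for *Tapbp* (plus strand) and chr17:34406280-34406579 for *Tap1* (plus strand). Capitals mark, on either strand, the core of the interferon-stimulated response element in both orders (GAAANNGAA and GAANNGAAA), the CCAAT box and TGACG, the core of the cyclic AMP response element. The order GAANNGAAA was added after the sequences were seen.
*H2-K1*: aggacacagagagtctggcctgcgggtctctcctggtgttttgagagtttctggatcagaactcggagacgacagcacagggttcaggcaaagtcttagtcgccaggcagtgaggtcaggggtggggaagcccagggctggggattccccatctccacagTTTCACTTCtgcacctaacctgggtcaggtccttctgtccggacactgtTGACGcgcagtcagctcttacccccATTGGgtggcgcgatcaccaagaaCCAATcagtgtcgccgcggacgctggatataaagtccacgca
*H2-D1*: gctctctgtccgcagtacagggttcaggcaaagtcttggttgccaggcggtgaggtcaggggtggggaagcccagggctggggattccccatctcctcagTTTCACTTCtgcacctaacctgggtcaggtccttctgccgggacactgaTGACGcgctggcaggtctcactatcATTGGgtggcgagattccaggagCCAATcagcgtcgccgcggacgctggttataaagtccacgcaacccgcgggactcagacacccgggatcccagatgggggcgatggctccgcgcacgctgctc
*B2m*: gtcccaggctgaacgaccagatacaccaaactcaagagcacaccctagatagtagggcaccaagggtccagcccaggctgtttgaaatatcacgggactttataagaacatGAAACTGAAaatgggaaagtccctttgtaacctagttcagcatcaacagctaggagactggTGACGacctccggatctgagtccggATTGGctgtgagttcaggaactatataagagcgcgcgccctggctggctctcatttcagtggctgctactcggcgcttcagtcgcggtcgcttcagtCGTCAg
*Tapbp*: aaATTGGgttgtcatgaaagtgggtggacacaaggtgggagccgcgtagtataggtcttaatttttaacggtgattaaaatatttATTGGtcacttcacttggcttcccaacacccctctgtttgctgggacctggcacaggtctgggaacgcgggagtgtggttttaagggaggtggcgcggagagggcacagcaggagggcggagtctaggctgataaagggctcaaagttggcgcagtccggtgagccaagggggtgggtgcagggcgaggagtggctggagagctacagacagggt
*Tap1*: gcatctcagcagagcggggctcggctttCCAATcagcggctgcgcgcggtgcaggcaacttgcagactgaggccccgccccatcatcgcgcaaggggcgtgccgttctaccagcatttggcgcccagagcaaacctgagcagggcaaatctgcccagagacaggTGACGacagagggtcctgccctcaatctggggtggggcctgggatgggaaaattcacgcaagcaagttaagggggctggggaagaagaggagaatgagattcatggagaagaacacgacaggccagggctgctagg

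Sequences were found for 8 of the 10 genes. CCAAT was present in 6 of the 8 windows, against 37.9% of 27025 promoters, and TGACG in 5 of 8, against 21% of promoters. GAAANNGAA was matched once, by GAAACTGAA 139 bases before the start of *B2m*, and is held by 8.57% of promoters. GAANNGAAA was matched by TTTCACTTC, read on the opposite strand, in both *H2-K1* and *H2-D1*, and is held by 7.56% of promoters. The core of the GAS element, TTCNNNGAA, was present in *Psmb8* alone among the 8 windows, against 8.47% of promoters. GGCGCC, a site of BMP-responsive Smads that 12% of promoters hold, was found in *Tap1* and *Psmb9*, which also both hold the CCAAT box and the TGACG core. The windows of these divergent genes share 275 bases and their starts in RefSeq's table lie 226 bases apart, so the matches of each of these 3 motifs in *Tap1* and *Psmb9* are 1 site counted for both genes. The *H2-K1* and *H2-D1* windows were identical at 206 of 228 aligned positions (90.4%). These matches describe letters in a window and are no evidence of binding.

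The levels of the 10 genes spanned several orders of magnitude. To compare genes, levels are given per kb of exonic length, the union of the exons of all transcripts in the annotation used here. That length can exceed the length of the transcripts expressed, so the order of genes with close levels depends on the annotation. *B2m* was the most abundant (mean 254.6 CPM per kb ± 11.7, SD, n = 16), followed by *H2-K1* (59.9 ± 2.35) and *Tapbp* (43.4 ± 3.21). *Psmb10* (23.1 ± 1.46) and *Tap2* (20.9 ± 0.766) came next and their ranges over the samples overlapped. *H2-D1* followed (9.93 ± 0.644), and its place relative to *H2-K1* is subject to the haplotype limit above. *Tap1* (5.88 ± 0.345) and *Psmb8* (4.70 ± 0.254) overlapped each other, and *Psmb9* (1.64 ± 0.131) was lower than both. The transactivator *Nlrc5* was nearly silent (0.0385 ± 0.00885 CPM per kb), with 4 to 12 reads per sample and 129 reads in all. All other neighbours did not overlap when the full exonic length was used. Over the 3486 bases of *Tapbp* that *Zbtb22* does not share in this annotation, its level was 54.9 CPM per kb (47.8 to 61.4), which overlapped that of *H2-K1* (55.4 to 63.4). The order is that of the mean over the samples of all plasmids.

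**Figure D1:**
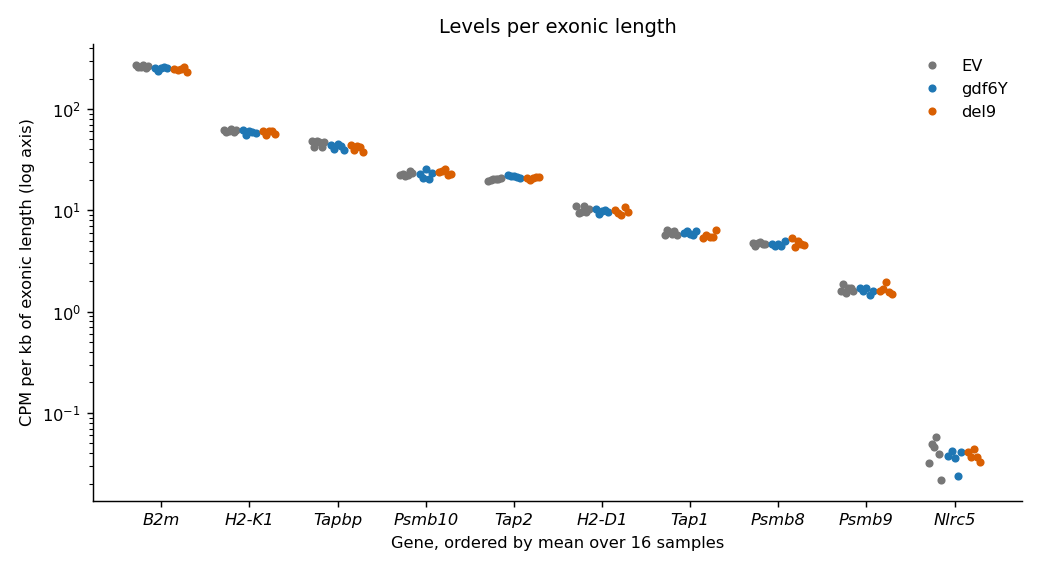
Level of each gene in each of the 16 samples, as CPM per kb of exonic length on a log axis, with genes ordered by their mean and each point a sample of EV, *gdf6Y* or del9. *B2m* lies at 254.6 and *Nlrc5* at 0.0385, and within a gene the points of the 3 plasmids lie close together.

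The plasmids give 3 comparisons: *gdf6Y* against EV, *gdf6Y* against del9, and del9 against EV. The first asks what the killifish gene changes relative to a plasmid without an insert, the second what differs with the deletion, and the last what the mutant changes relative to EV. Fold changes, their standard errors (SE) and adjusted p-values come from the quasi-likelihood test of edgeR, adjusted over all genes tested by the Benjamini-Hochberg method, and a gene is called at an adjusted p below 0.05. That test draws each gene's spread toward the spread of other genes. Its SE can therefore be smaller than a gene's own samples would give, as for *Tapbp*, and its p-values do not measure that gene's spread alone. Normalized read counts are counts scaled to the mean effective library size. The first and the last comparison share the EV samples, and the first and second the *gdf6Y* samples. Between *gdf6Y* and EV, 2 of the 10 genes were called, *Tap2* higher and *Tapbp* lower, where 5.08% of all genes tested were called, 1.70% of them higher and 3.38% lower. Between del9 and EV, 2 were called, *B2m* and *Tapbp*, both lower, where the share of all genes was 9.25%, with 4.82% higher and 4.43% lower. Between *gdf6Y* and del9, 0 were called by edgeR's or DESeq2's test, where 1.01% of all genes were called, 0.599% higher and 0.410% lower, and no member had an unadjusted p under 0.05. These shares are over every gene with a count, 26316 in *gdf6Y* against EV. Only 12584 genes had a mean count of at least 10 over the 16 samples. Rare genes can seldom be called or separated, so the share among genes covered like most members would probably be higher and was not computed. The median log2 fold change of the 9 members with a mean count of at least 10 was -0.04, 0.02 and -0.05 in *gdf6Y* against EV, *gdf6Y* against del9 and del9 against EV, against 0.00085, -0.0042 and 0.0051 over all genes of that abundance.

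**Figure D2:**
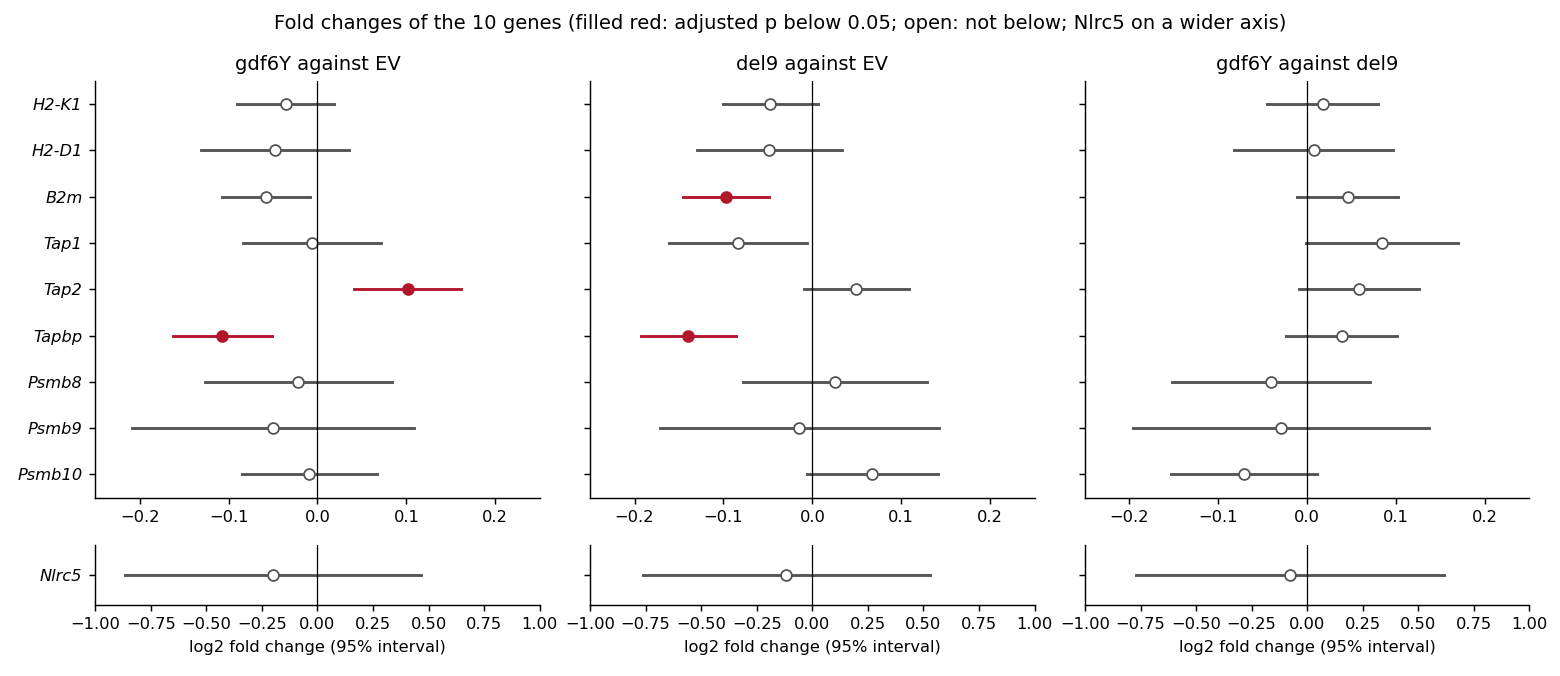
Log2 fold change of each gene in each comparison with its 95% interval, filled red where the adjusted p was below 0.05 in edgeR's test, with *Nlrc5* on its own wider axis. The called changes are *Tap2* (0.10) and *Tapbp* (-0.11) in *gdf6Y* against EV and *B2m* (-0.10) and *Tapbp* (-0.14) in del9 against EV, and the intervals of *gdf6Y* against del9 all include 0.

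*Tapbp* encodes tapasin, the chaperone that bridges the empty class I molecule to the peptide transporter and favours the binding of tight ligands. Its normalized read counts in EV ranged from 4539 to 5276 with a median of 5105. In *gdf6Y* replicates 1 to 5 they were 4834, 4383, 4884, 4683 and 4301, and in del9 they were 4840, 4272, 4720, 4620.2 and 4106. Every sample of both insert plasmids was thus under the EV median, but the groups overlapped, because EV had 2 low samples as well. Its level fell by 7.14% from EV to *gdf6Y* (log2 fold change -0.11, SE 0.028, edgeR adjusted p = 0.00651) and fell by 9.22% from EV to del9 (-0.14, SE 0.027, edgeR adjusted p = 1.83e-05). Between *gdf6Y* and del9 the log2 difference was 0.04 with a 95% interval of -0.02 to 0.10. The call in del9 against EV remained in every alternative computed. The call in *gdf6Y* against EV was lost in DESeq2 (adjusted p = 0.0872), with either stricter filter on low counts (adjusted p = 0.110 and 0.109), and without *gdf6Y* replicate 2 (0.0598), *gdf6Y* replicate 5 (0.110), EV replicate 1 (0.0769) or EV replicate 3 (0.0587).

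*Tap1* and *Tap2* encode the paired subunits of the transporter that moves peptides from the cytosol into the endoplasmic reticulum, and they did not move alike. The normalized counts of *Tap2* in EV ran from 2303 to 2426 with a median of 2371. They were 2612, 2588, 2557, 2498 and 2458 in *gdf6Y* replicates 1 to 5, so every *gdf6Y* sample exceeded every EV sample, and 2444, 2351, 2436, 2499.6 and 2523 in del9, which overlapped both. *Tap2* was the 1 member of 10 whose groups did not overlap between *gdf6Y* and EV, where 2.61% of all genes did not, and in the other comparisons no member was separated in this way, against 1.29% of all genes for *gdf6Y* against del9 and 3.77% for del9 against EV. It was 7.30% higher in *gdf6Y* than in EV (log2 fold change 0.10, SE 0.031, edgeR adjusted p = 0.0246). The difference was 0.05 between del9 and EV (edgeR adjusted p = 0.392) and 0.06 between *gdf6Y* and del9 (95% interval -0.01 to 0.13). The call was lost without *gdf6Y* replicate 2 (edgeR adjusted p = 0.0564), *gdf6Y* replicate 3 (0.0632) or EV replicate 1 (0.0586), and with offsets for GC share and gene length, an alternative chosen after seeing the data (0.0833).

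The normalized counts of *Tap1* were 845 to 943 in EV (median 884), 880.2, 923, 865, 837 and 918 in *gdf6Y*, and 785, 854, 807, 799 and 941 in del9. Of the del9 samples, 4 lay in the lower part of the range and replicate 5 was close to the highest EV sample. *Tap1* differed by -0.01 between *gdf6Y* and EV (SE 0.040, edgeR adjusted p = 0.951) and by -0.08 between del9 and EV (SE 0.039, edgeR adjusted p = 0.208). Without del9 replicate 5 the latter was -0.13 and was called (edgeR adjusted p = 0.0344), as it was with offsets for GC share and gene length (-0.12, adjusted p = 0.0339). Its difference between *gdf6Y* and del9, 0.08, had the lowest adjusted p of the 10 genes in that comparison (0.619 in edgeR), with a 95% interval of -0.0013 to 0.17.

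*B2m* encodes β2-microglobulin, without which heavy chains do not leave the endoplasmic reticulum. Its normalized counts were 13192 to 14194 in EV with a median of 13594. In *gdf6Y* they were 13322, 12261, 13229.6, 13577 and 13228, and in del9 12764, 12629.8, 12750.5, 13635 and 12028. In *gdf6Y*, 4 samples lay close together within the EV range and replicate 2 was lower, while in del9 4 of 5 samples were under the lowest EV sample. *B2m* fell by 6.50% from EV to del9 (log2 fold change -0.10, SE 0.025, edgeR adjusted p = 0.00229), and this call remained in every alternative. The difference between *gdf6Y* and EV was -0.06 (SE 0.025, edgeR adjusted p = 0.225), and it was called only with offsets for GC share and gene length (-0.09, adjusted p = 0.00390). Between *gdf6Y* and del9 it was 0.05 (95% interval -0.01 to 0.10).

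Neither heavy chain gene was called in any comparison. *H2-K1*, which encodes the K molecule that presents peptides to CD8 T cells, had normalized counts of 4629 to 4977 in EV with a median of 4797. In *gdf6Y* it was at 4882, 4395, 4759, 4695 and 4599, and in del9 at 4795, 4348, 4768, 4804 and 4422, so the groups overlapped throughout. Its log2 differences were -0.04 for *gdf6Y* against EV (95% interval -0.09 to 0.02), -0.05 for del9 against EV (-0.10 to 0.01) and 0.02 for *gdf6Y* against del9 (-0.05 to 0.08). With offsets for GC share and gene length, *H2-K1* was called lower in del9 than in EV (-0.10, edgeR adjusted p = 0.00389). *H2-D1*, which encodes the D molecule, ranged from 691 to 819 in EV, 672 to 764 in *gdf6Y* and 664 to 801 in del9. It differed by -0.05 between *gdf6Y* and EV and by -0.05 between del9 and EV, and both 95% intervals, -0.13 to 0.04 and -0.13 to 0.03, included 0. The offsets remove a trend that followed the plasmids. The rank correlation across 10069 genes between exonic length and a sample's deviation from the mean was 0.133 to 0.349 in EV, -0.348 to 0.00489 in *gdf6Y* and -0.256 to 0.0704 in del9. For GC share it was -0.317 to -0.0232 in EV, -0.273 to 0.236 in *gdf6Y* and -0.0332 to 0.366 in del9. Whether these trends come from the libraries or are part of a plasmid's effect cannot be told apart.

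*Nlrc5*, the NOD-like receptor that occupies class I promoters as their transactivator, was too rare for a comparison. It had 4 to 12 reads per EV sample, 5 to 8 per *gdf6Y* sample and 7 to 9 per del9 sample. The 95% intervals of its log2 fold changes ran from -0.87 to 0.47 for *gdf6Y* against EV, from -0.76 to 0.53 for del9 against EV and from -0.77 to 0.62 for *gdf6Y* against del9, so a change of the size seen in the other members was not detectable at this depth.

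**Figure D3:**
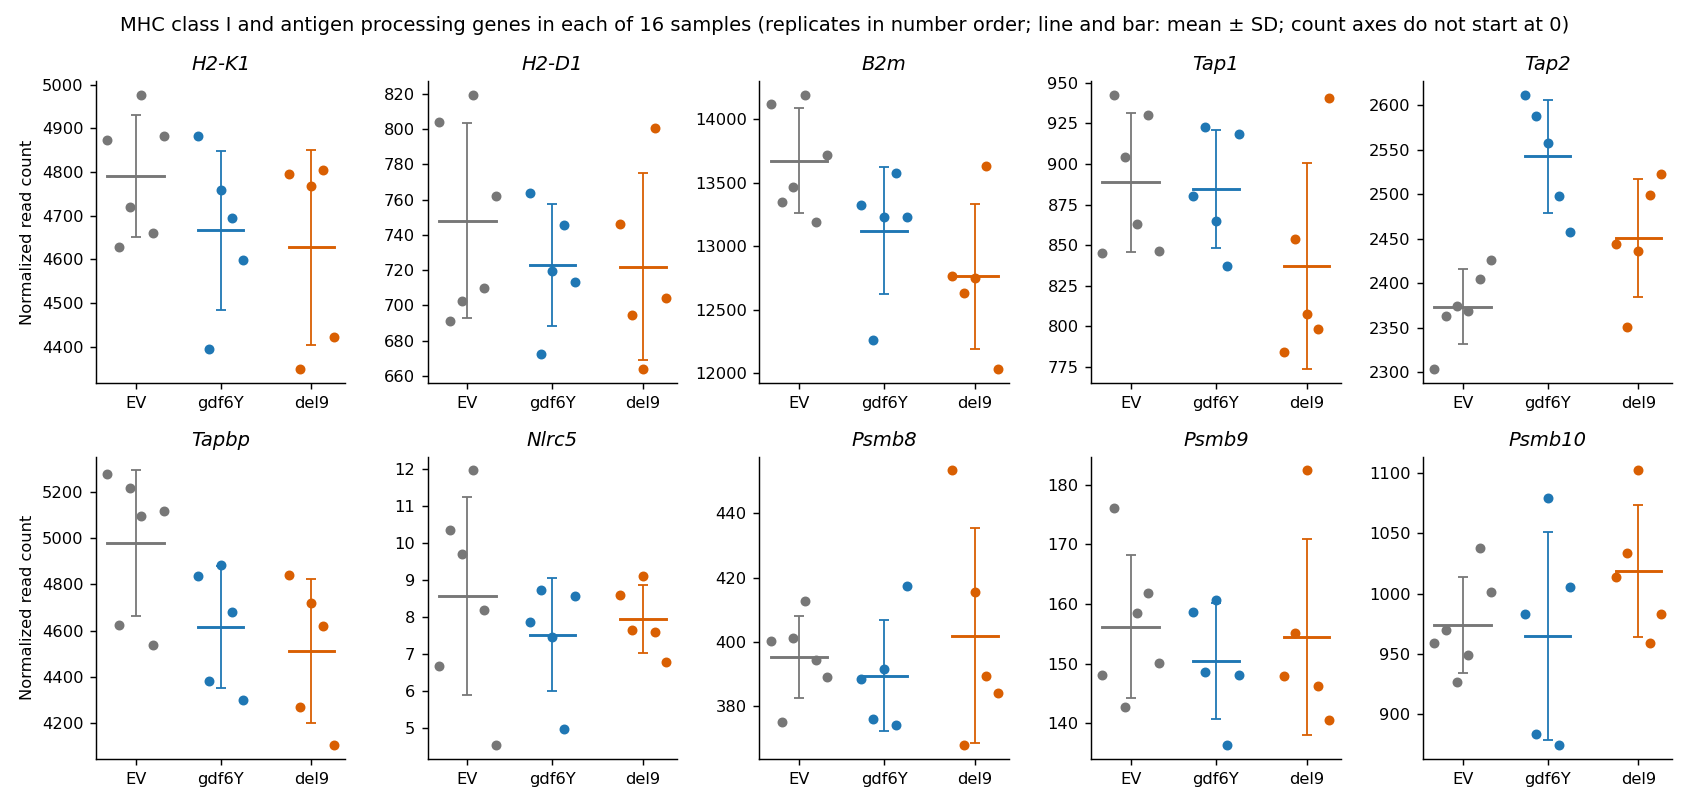
Normalized read count of each of the 10 genes in each sample, with replicates in number order inside each plasmid group, a line for the group mean and a bar for ± SD; count axes do not start at 0. The *gdf6Y* points of *Tap2* (2458 to 2612) lie above all EV points (2303 to 2426), and replicates 2 and 5 of each group are the lowest for *Tapbp*.

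*Psmb8*, *Psmb9* and *Psmb10* encode the inducible catalytic subunits that replace *Psmb5*, *Psmb6* and *Psmb7* in the immunoproteasome and shift its cuts toward peptides that class I binds well. None was called in any comparison. *Psmb8* ranged from 375 to 413 normalized counts in EV, 374 to 417 in *gdf6Y* and 368 to 453 in del9. *Psmb9* ranged from 143 to 176, 136 to 161 and 141 to 182 in the same groups, and *Psmb10* from 927 to 1038, 874 to 1079 and 959 to 1102. All of these ranges overlapped. The log2 differences against EV were -0.02, -0.05 and -0.01 in *gdf6Y* and 0.03, -0.01 and 0.07 in del9 for *Psmb8*, *Psmb9* and *Psmb10*, and the lowest of their edgeR adjusted p-values was 0.333, for *Psmb10* in del9.

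The constitutive partners were higher in del9 than in EV, with a log2 fold change of 0.16 for *Psmb5* (edgeR adjusted p = 0.000897), 0.12 for *Psmb6* (0.000534) and 0.10 for *Psmb7* (0.00218). In *gdf6Y* against EV the values were 0.06 (edgeR adjusted p = 0.515), 0.09 (0.0477) and 0.08 (0.0822). With offsets for GC share and gene length, *Psmb5* (0.10, edgeR adjusted p = 0.0919) and *Psmb6* (0.07, edgeR adjusted p = 0.0917) were no longer called in del9. The *Psmb6* call in *gdf6Y* was lost with the offsets (0.04, edgeR adjusted p = 0.513), in 2 further alternatives, and without *gdf6Y* replicate 2, 3 or 5 or any 1 of EV replicates 1 to 5 (edgeR adjusted p = 0.0585 to 0.186). The balance was also measured as the ratio of each inducible gene to its partner within a sample, which does not depend on library scaling. *Psmb8* had 43.8 reads per 100 of *Psmb5* in EV (mean, range 41.5 to 45.5, n = 6), 41.6 in *gdf6Y* (38.7 to 48.6, n = 5) and 39.9 in del9 (37.1 to 42.6, n = 5). *Psmb9* had 3.91 reads per 100 of *Psmb6* in EV, 3.55 in *gdf6Y* and 3.56 in del9, and *Psmb10* had 17.3, 16.3 and 16.9 per 100 of *Psmb7*. The insert plasmids had the lower mean in each case, with overlapping ranges. The *Psmb8* ratio differed by -0.14 on the log2 scale between del9 and EV (SE 0.040, exact permutation test, two-sided, p = 0.00866, adjusted over the 9 ratio tests 0.0779), and the *Psmb9* ratio by -0.14 between *gdf6Y* and EV (SE 0.053, exact permutation test, two-sided, p = 0.0390, adjusted 0.175). The remaining 7 tests had larger p-values, and none of the 9 passed after adjustment, although the smallest p that these group sizes allow is 0.00433 against EV and 0.00794 for *gdf6Y* against del9.

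**Figure D4:**
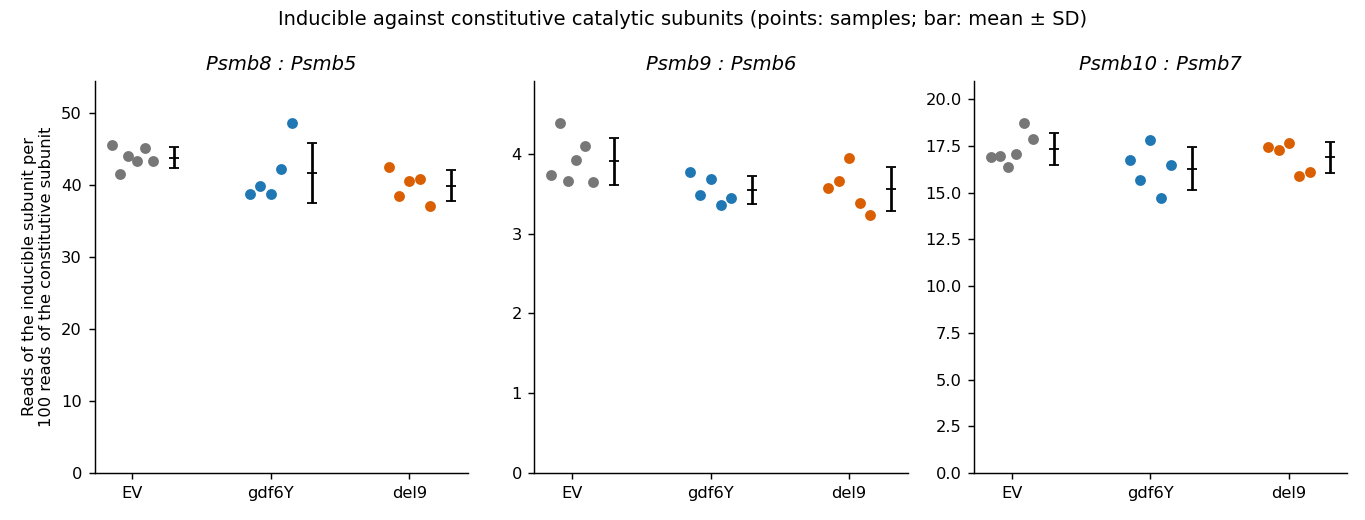
Reads of each inducible catalytic subunit per 100 reads of its constitutive partner in each sample, from 0, with points for samples and a bar for the mean ± SD of each group. *Psmb8* stands at 43.8 per 100 of *Psmb5* in EV and 39.9 in del9, and the points of all groups overlap.

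Samples with the same replicate number resembled each other in several of these genes, a pattern chosen for description after the values were seen. In each of the 3 plasmid groups, replicates 2 and 5 had the lowest normalized counts of *Tapbp*, of *H2-K1* and of *B2m*, and the highest of *Tap1*. For *Tapbp* in EV, replicates 2 and 5 stood at 4626 and 4539 and the other 4 samples at 5095 to 5276. With group means removed, the correlation over the 16 samples was 0.814 between *H2-K1* and *Tapbp*, 0.795 between *H2-D1* and *B2m*, and 0.769 between *H2-K1* and *B2m*. *Tap1* ran against them, with -0.848 for *Tapbp*, -0.783 for *H2-K1* and -0.772 for *B2m*, while the correlation of *Tap1* with *Tap2* was 0.181. These correlations describe samples that share a library, its depth and its base composition with all genes. In EV, replicates 2 and 5 had the lowest rank correlation across genes between GC share and deviation (-0.317 and -0.300, against -0.133 to -0.0232 in the others), but in *gdf6Y* they had -0.00923 and -0.0163 within a range of -0.273 to 0.236, and the part of base composition in the pattern was not tested.

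Among the genes outside the members, those whose log2 CPM followed the mean z-score of the 9 measured members most closely over the 16 samples were *Ly6e* (Pearson's r = 0.878), *Kcnab2* (0.833), *Isg15* (0.823), *Bst2* (0.820) and *Matn2* (0.814), of 10066 genes ranked. Plasmid group means were not removed here, so r also carries differences between the plasmids. The score averages genes that did not move together, as *Tap1* ran against *Tapbp*, *H2-K1* and *B2m* within groups. It is thus no shared course of all 9. *Ly6e*, *Isg15* and *Bst2* are known as interferon-stimulated genes. *Kcnab2* encodes a subunit of potassium channels and *Matn2* a matrix protein.

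A further 91 genes of the pathway, in 7 lists, were read from the same fits. Between *gdf6Y* and EV 11 of the 85 that were tested were called, where the share of all genes was 5.08%, and between del9 and EV 23 of 85, where it was 9.25%. Higher and lower calls made up 1.70% and 3.38% of all genes in the first of these comparisons and 4.82% and 4.43% in the other, against which the counts of each list are to be read. All genes include many rare ones, as said above, so these shares are a low bar for lists of mostly well-covered genes. Whether the lists exceed genes of like abundance was not tested. Between *gdf6Y* and del9 edgeR and DESeq2 both called 0 of 86, of which 5 had an unadjusted p under 0.05 in edgeR. Among 20 class I heavy chains and relatives, 18 were tested and 13 had a mean count of at least 10. Of these, 0 were higher and 2 lower in *gdf6Y* than in EV, and 0 were higher and 3 lower in del9, with median log2 fold changes of -0.08 in both, against 0.00085 and 0.0051 over all genes. *Mr1*, which presents microbial vitamin metabolites to mucosal T cells, fell in both (-0.16, edgeR adjusted p = 0.0254, and -0.22, edgeR adjusted p = 0.000215). *H2-T24*, a non-classical class I gene, fell as well (-0.20, edgeR adjusted p = 0.000953, and -0.16, edgeR adjusted p = 0.00673). *H2-M3*, which presents formylated bacterial peptides, fell in del9 against EV (-0.13, edgeR adjusted p = 0.0236) and was at -0.09 in *gdf6Y* against EV (edgeR adjusted p = 0.268). The *Mr1* call in *gdf6Y* and the *H2-M3* call in del9 were lost in DESeq2 (adjusted p = 0.0735 and 0.191). Without *gdf6Y* replicate 2 or 5 or EV replicate 1, 3 or 4, *H2-T24* was the only call left in *gdf6Y* against EV, and without del9 replicate 1 or EV replicate 2 or 5 the list had 5 calls in del9 against EV. With offsets for GC share and gene length it had 5 in each of these comparisons. The limits of multi-mapping and haplotype given for *H2-K1* and *H2-D1* hold for the *H2* genes of this list too.

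**Figure D5:**
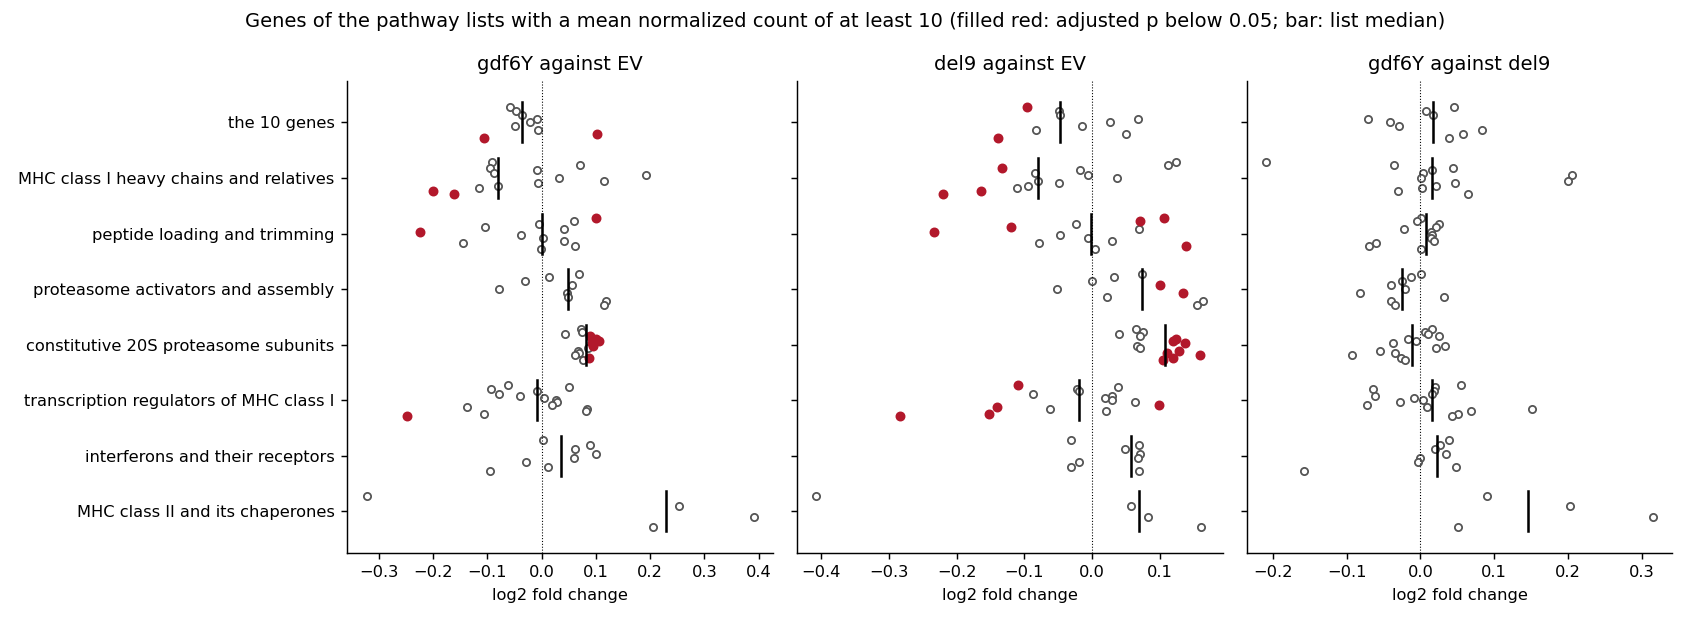
Log2 fold change of each gene with a mean normalized count of at least 10 in the 10 genes and the 7 pathway lists, one panel per comparison, filled red where edgeR's adjusted p was below 0.05, with a bar at each list's median. The 14 constitutive 20S subunits all lie to the right of 0 against EV, with medians of 0.08 and 0.11, and no listed gene is called in *gdf6Y* against del9.

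Of the 12 genes for peptide loading and trimming, 1 was higher and 1 lower in *gdf6Y* than in EV, and 3 were higher and 2 lower in del9. *Lnpep*, an aminopeptidase of endosomes, fell by 0.23 on the log2 scale in *gdf6Y* (edgeR adjusted p = 1.86e-10) and by 0.23 in del9 (edgeR adjusted p = 9.05e-13), the steepest falls of this list. Its normalized counts were 2827 to 3111 in EV, 2351 to 2861 in *gdf6Y*, which overlapped EV, and 2415 to 2627 in del9. *Erap1*, which trims peptides inside the endoplasmic reticulum, was at -0.12 in del9 against EV (edgeR adjusted p = 0.0186) and at -0.10 in *gdf6Y* (edgeR adjusted p = 0.0901). *Thop1* and *Blmh* are peptidases of the cytosol. *Thop1* rose by 0.14 in del9 (edgeR adjusted p = 0.000161), and *Blmh* rose by 0.11 in del9 (edgeR adjusted p = 0.0109) and by 0.10 in *gdf6Y* (edgeR adjusted p = 0.0380). With offsets for GC share and gene length, *Erap1* was no longer called (adjusted p = 0.191). *Blmh* was called in *gdf6Y* neither without EV replicate 1, 3, 4 or 6 nor without *gdf6Y* replicate 3, 4 or 5, and the del9 count was 3 without del9 replicate 4 or EV replicate 2, 3, 5 or 6.

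Among proteasome genes outside the inducible set, called differences were all higher in the insert plasmids. Of the 14 constitutive 20S subunits, 6 were higher and 0 lower in *gdf6Y* than in EV, and 8 were higher and 0 lower in del9, with medians of 0.08 and 0.11. *Psma7* was at 0.09 (edgeR adjusted p = 0.0178) and 0.14 (edgeR adjusted p = 1.59e-05), *Psma5* at 0.10 (edgeR adjusted p = 0.0185) and 0.12 (edgeR adjusted p = 0.000514), and *Psmb3* at 0.07 (edgeR adjusted p = 0.221) and 0.13 (edgeR adjusted p = 0.000257). All of these form the core particle that both kinds of proteasome share or the constitutive one uses. The *gdf6Y* count of 6 depended on the processing, at 11 in DESeq2, 2 with offsets for GC share and gene length, 3 without *gdf6Y* replicate 3 or without EV replicate 3, and 0 without *gdf6Y* replicate 5. With the offsets, *Psma5* was no longer called in del9 (0.07, edgeR adjusted p = 0.0734), while *Psma7* and *Psmb3* still were. The del9 count was 8 to 11 over the alternatives other than leaving out 1 replicate. Of 9 activators and assembly factors, 0 were called in *gdf6Y* and 2 in del9, both higher: *Psme3*, a nuclear activator (0.10, edgeR adjusted p = 0.00308), and *Psmg1*, an assembly chaperone (0.13, edgeR adjusted p = 0.0324), the latter not in DESeq2 (adjusted p = 0.0622). Without del9 replicate 3 or any 1 of EV replicates 1 to 4, 1 was called in del9. DESeq2 called 1 in *gdf6Y* and 3 in del9, of which 1 in each comparison was lower.

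Among 16 transcription regulators of class I genes, 1 was lower and 0 higher in *gdf6Y* than in EV, and 4 were lower and 1 higher in del9. *Stat2*, which carries the type I interferon signal to the nucleus, had the lowest adjusted p of all listed genes in both comparisons with EV. It stood at 2452 ± 244 normalized counts in EV (SD, n = 6), 2063 ± 151 in *gdf6Y* (n = 5) and 2010 ± 134 in del9 (n = 5). The EV samples ranged from 2107 to 2675 and overlapped those of *gdf6Y* (1854 to 2249) and of del9 (1899 to 2209). The log2 fold change of *Stat2* was -0.25 in *gdf6Y* (SE 0.033, edgeR adjusted p = 2.74e-11) and -0.28 in del9 (SE 0.031, edgeR adjusted p = 2.45e-17). Both SEs are smaller than the SDs of its own samples would give, so these p-values overstate how far the groups lie apart. *Creb1*, a factor of the class I X box, was lower in del9 (-0.11, edgeR adjusted p = 0.0203), and *Rela*, a subunit of NF-κB, was higher (0.10, edgeR adjusted p = 0.0238). *Creb1* and *Rela* were not called with offsets for GC share and gene length (adjusted p = 0.699 and 0.451). *Rela* was also not called with total counts (edgeR adjusted p = 0.0823) or 1 model of 3 groups (0.0513). Its call was lost without del9 replicate 1, 3 or 5 or EV replicate 1 or 2 (edgeR adjusted p = 0.0568 to 0.117). That of *Creb1* was lost without del9 replicate 3 (0.173) or EV replicate 5 (0.0707). Leaving out 1 sample gave 2 to 5 calls in del9, with 2 without del9 replicate 3 and 3 without del9 replicate 5, EV replicate 1 or EV replicate 5. In *gdf6Y* against EV the count was 2 without *gdf6Y* replicate 1, 2 or 4 or EV replicate 2 or 3.

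None of 11 interferons, receptors and Janus kinases and none of 10 class II genes was called in any comparison by the edgeR fits reported here or by DESeq2, but an edgeR fit with the replicate number as a block called *Tyk2* in *gdf6Y* against del9 (adjusted p = 0.0272). Unadjusted edgeR p-values under 0.05 numbered 1 for the interferon list in *gdf6Y* against EV (*Ifngr2*) and 1 in *gdf6Y* against del9 (*Tyk2*), and 2 for class II in *gdf6Y* against EV (*H2-DMa* and *H2-DMb1*), and these 4 genes were chosen after their values were seen. *Ifnb1* had 39 reads and *Ifng* 15 over all 16 samples, against 1994 to 2462 reads per sample of *Irf1* (named as a well-covered contrast), an interferon-responsive factor of the regulator list. *Ciita*, the class II counterpart of *Nlrc5*, had 1 read in all, and *H2-Aa*, a class II chain, had 2.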

How the data were processed

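TM4 cells transfected with EV (n = 6), *gdf6Y* (n = 5) or del9 (n = 5) were profiled by strand-specific poly(A) RNA-Seq with unique molecular identifiers (UMIs). The deposited values were raw counts of UMI-deduplicated reads per gene, made by the authors with bcl2fastq 2.20.0.422, UMI-tools, STAR 2.7.10a on GRCm39 and featureCounts 2.0.3, and multi-mapping and multi-overlapping reads were discarded there. Replicate 6 of *gdf6Y* and of del9 was not analysed here. Groups were taken from the labels. Library totals of 21486850 to 26444903 counts set the precision.

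Every gene with a count above 0 somewhere among the samples was fitted for 2 groups at a time with edgeR 4.0.16 (TMM, quasi-likelihood, R 4.3.3), with Benjamini-Hochberg adjustment over all genes tested and a threshold of 0.05. Subunit ratios were compared by exact permutation tests (scipy 1.17.1, pseudocount 0.5). Alternatives were DESeq2 1.42.0, its size factors, total counts, stricter filters (filterByExpr or at least 10 counts in every sample), 1 model of all 3 groups, edgeR 4 dispersions, a replicate block, each replicate left out and, chosen after seeing the data, offsets for GC share and gene length. The fits were also run on simulated counts, drawn independently for each sample. These lack the replicate, GC and length patterns of the data, so they give no error rate for the calls here.

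The members and lists were chosen with earlier results of these data known. All members were named, with up to 4 genes of each list (those called in any comparison, by smallest adjusted p), the constitutive partners *Psmb5*, *Psmb6* and *Psmb7*, and the 5 genes most correlated with the mean z-score of the measured members, where the mean count was 100 or more. A gene named by this rule is not reported here.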

Additional observations from a re-analysis of the deposited data

Results flagged for a closer look

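*B2m* in *gdf6Y* had 1 sample far from the others. Replicate 2 stood at 12261 normalized counts and the other 4 samples at 13228 to 13577, so that its gap to the nearest sample was 0.734 of the whole range, above Dixon's 95% limit for 5 samples. Of 39 groups of values looked at, this was the 1 that passed, where chance gives about 1.95. Without this sample the log2 fold change of *B2m* between *gdf6Y* and EV was -0.03 (edgeR adjusted p = 0.593), against -0.06 with it (edgeR adjusted p = 0.225). The cause was not tested.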

How the results depend on the processing

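Over the log2 fold changes of the 10 genes, 254 values under the alternatives that kept all samples had the same direction and side of the threshold, 3 gained a call, 4 lost one and 3 reversed. With 1 replicate left out, 287 were the same, 1 gained a call, 7 lost one and 25 reversed, and the reversed values were of genes without a call in that comparison. The subunit ratios are not in these counts. The falls of *Tapbp* and *B2m* in del9 against EV were called in every alternative run. The members called in *gdf6Y* against EV numbered 1 in DESeq2, 1 with filterByExpr and 1 with at least 10 counts in every sample, and those in del9 against EV 4 with offsets for GC share and gene length. Other pathway genes called in *gdf6Y* against EV numbered 17 in DESeq2. All genes called in *gdf6Y* against del9 (261) numbered 81 in DESeq2, 45 with filterByExpr, 44 with at least 10 counts in every sample and 163 with edgeR 4 dispersions. With the offsets, *Psmb8* (-0.0233) and *Psmb10* (-0.00066) reversed in del9 against EV. The cause was not tested.

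Same-numbered samples were no labelled pairs, and the correlations of their deviations had a lowest value of 0.0040 in *gdf6Y* against EV, 0.0994 in *gdf6Y* against del9 and -0.0282 in del9 against EV, so the numbers were not taken to pair the samples. The mean over the 5 same-numbered pairs was 0.121, 0.134 and 0.0609, against -0.0307, -0.0335 and -0.0155 between other numbers, and 4, 4 and 2 pairs were over 0.1. As a hint from the data, 6, 7 and 2 of 10 samples correlated best with their own number. A replicate block gave 2114 calls over all genes in *gdf6Y* against EV (1338 without it) and 661 in *gdf6Y* against del9, 20 and 1 other pathway genes in these comparisons (the last being *Tyk2*, edgeR adjusted p = 0.0272), the same number of members called in each comparison, and a log2 fold change of 0.00060 for *Psmb10* in *gdf6Y* against EV.

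Leaving out 1 replicate gave 794 to 1751 calls over all genes in *gdf6Y* against EV and 160 to 441 in *gdf6Y* against del9. Members called in *gdf6Y* against EV ranged from 0 to 2, with 0 without *gdf6Y* replicate 2 or EV replicate 1 and 1 without *gdf6Y* replicate 3, *gdf6Y* replicate 5 or EV replicate 3, and other pathway genes from 3 to 17. In *gdf6Y* against EV the log2 fold change ran from -0.0200 to 0.0175 for *Tap1* and from -0.0532 to 0.0293 for *Psmb10*. In *gdf6Y* against del9 it ran from -0.0263 to 0.0426 for *H2-D1*, -0.0074 to 0.0374 for *H2-K1*, -0.133 to 0.0391 for *Nlrc5*, -0.0742 to 0.0057 for *Psmb8* and -0.0609 to 0.0299 for *Psmb9*, and from -0.0361 to 0.0359 for the *Psmb9* to *Psmb6* ratio. In del9 against EV it ran from -0.0252 to 0.0559 for *Psmb8*, -0.0780 to 0.0180 for *Psmb9* and -0.233 to 0.00044 for *Nlrc5*. Depth limits *Nlrc5*, whose counting error alone was 35.2% of its mean.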
